A study of Mus musculus with 9 samples.

Results

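Immunoglobulin heavy-chain V genes (Ighv genes) were followed in bulk RNA sequencing of aged C57BL/6 mice. The members were all rows of the deposited expression table whose symbol begins with Ighv and a number, which gave 185 of 46517 rows and 183 distinct symbols. All 185 lie on chromosome 12 between 113572927 and 116010093 (build mm10), and the annotation lists 113 of them as functional V genes, 70 as pseudogenes and 2 under another immunoglobulin gene class. The libraries were 4 spleens of plckGAPDH mice (animals 343, 508 and 547 and 1 spleen whose column carries no animal number, called the unnumbered spleen), 2 lymph nodes of plckGAPDH mice (animals 455 and 508) and 3 spleens of wild-type (WT) mice (animals 1, 4 and 5). All mice were older than 18 months. In plckGAPDH mice a Gapdh transgene is driven by the Lck promoter, which acts in the T cell lineage, whereas Ighv genes are transcribed as antibody RNA in the B cell lineage. The labels speak of tumour-bearing plckGAPDH mice and of splenocyte RNA, also for the lymph nodes, and animal 508 gave both a spleen and a lymph node. The labels do not settle whether the 4 plckGAPDH spleens come from 4 animals, so a p-value here reflects the spread between samples, which may be partly technical.

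Each B cell joins 1 V segment, 1 D segment and 1 J segment into its heavy-chain gene and passes that choice to its daughter cells. A spleen with many B cell clones therefore holds RNA of many V genes, whereas the offspring of 1 clone share a single V gene. Members with a common number after Ighv form a subgroup of similar sequence, and a few are known for what they bind: Ighv12-3 and Ighv11-2 encode phosphatidylcholine-binding antibodies of B-1 cells, the innate-like B cells of the body cavities.

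Values are FPKM, fragment numbers scaled to the length of the gene and to the size of the library. The depth estimated from the spacing of low values was 23800000 to 33700000 fragments per library. Defining genes of B cells were present in every library: 9 genes, Ms4a1 and Pax5 among them, summed to between 379.9 FPKM (lymph node 455) and 1999 FPKM (WT spleen 5). Libraries of a group differed in other content. In WT spleen 4, 4 neutrophil genes summed to 3.72 FPKM, against 3168 FPKM in WT spleen 1 and 475 FPKM in WT spleen 5. In WT spleen 5, 4 erythroid genes summed to 45268 FPKM, against 1.57 to 1268 FPKM in the other 8 libraries. Genes of the exocrine pancreas summed to 164 FPKM in plckGAPDH spleen 343, 297 FPKM in lymph node 455 and 179 FPKM in WT spleen 1, and to 2.99 to 7.34 FPKM elsewhere. The part of these differences in the results was not tested.

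The most abundant Ighv gene of each library carries most of what follows, and the sequences of 6 of them are shown with that of Ighv11-2, the other B-1 gene. Each is the last 300 bases of the V exon, 5′ to 3′ in the sense of the transcript (minus strand), read from GENCODE M21 transcripts on GRCm38, the assembly that mm10 names. The stretches are chr12:114288152-114288451 for Ighv3-6, chr12:115193675-115193974 for Ighv1-54, chr12:114366521-114366820 for Ighv12-3, chr12:115757984-115758283 for Ighv1-72, chr12:114615850-114616149 for Ighv1-12, chr12:113948282-113948581 for Ighv4-1 and chr12:114048241-114048540 for Ighv11-2. Capitals mark TATTNNTGT, a tyrosine codon and a cysteine codon with 2 free bases between them near the end of the V segment, searched on the coding strand. It is found in 91 of 113 functional members (80.5%) and in 37 of 70 pseudogenes (52.9%). The bases after the capitals lead into the junction with D and J, which differs from clone to clone and is not part of these sequences.
Ighv3-6: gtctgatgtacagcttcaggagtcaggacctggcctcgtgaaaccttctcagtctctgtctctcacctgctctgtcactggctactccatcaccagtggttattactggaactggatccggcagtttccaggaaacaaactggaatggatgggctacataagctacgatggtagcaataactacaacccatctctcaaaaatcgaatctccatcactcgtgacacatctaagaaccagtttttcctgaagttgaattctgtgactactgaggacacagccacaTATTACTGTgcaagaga
Ighv1-54: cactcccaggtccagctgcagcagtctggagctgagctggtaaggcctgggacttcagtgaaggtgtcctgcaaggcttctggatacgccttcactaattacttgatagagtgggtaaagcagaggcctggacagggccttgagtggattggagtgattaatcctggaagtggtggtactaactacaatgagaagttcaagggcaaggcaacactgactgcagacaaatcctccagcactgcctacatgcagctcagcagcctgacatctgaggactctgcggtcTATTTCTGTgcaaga
Ighv12-3: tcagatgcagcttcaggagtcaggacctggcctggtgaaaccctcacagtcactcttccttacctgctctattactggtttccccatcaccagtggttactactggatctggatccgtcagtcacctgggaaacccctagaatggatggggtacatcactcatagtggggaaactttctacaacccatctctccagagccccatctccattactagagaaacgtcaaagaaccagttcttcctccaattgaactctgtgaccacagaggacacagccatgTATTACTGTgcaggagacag
Ighv1-72: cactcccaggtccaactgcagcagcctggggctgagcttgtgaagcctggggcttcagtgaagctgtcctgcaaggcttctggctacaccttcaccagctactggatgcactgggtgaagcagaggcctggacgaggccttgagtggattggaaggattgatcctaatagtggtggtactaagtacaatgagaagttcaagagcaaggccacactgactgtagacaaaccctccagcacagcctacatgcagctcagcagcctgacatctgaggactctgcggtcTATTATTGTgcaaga
Ighv1-12: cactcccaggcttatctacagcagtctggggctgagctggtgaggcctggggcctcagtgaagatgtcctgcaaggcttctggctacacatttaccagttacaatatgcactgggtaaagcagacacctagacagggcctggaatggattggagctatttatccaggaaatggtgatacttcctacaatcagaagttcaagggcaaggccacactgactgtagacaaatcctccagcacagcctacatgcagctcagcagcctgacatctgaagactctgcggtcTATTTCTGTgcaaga
Ighv4-1: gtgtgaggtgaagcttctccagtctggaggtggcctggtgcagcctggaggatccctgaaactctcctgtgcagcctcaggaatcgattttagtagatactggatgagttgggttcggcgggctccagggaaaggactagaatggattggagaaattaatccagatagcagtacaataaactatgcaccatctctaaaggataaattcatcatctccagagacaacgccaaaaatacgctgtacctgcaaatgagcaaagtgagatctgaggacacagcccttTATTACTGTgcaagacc
Ighv11-2: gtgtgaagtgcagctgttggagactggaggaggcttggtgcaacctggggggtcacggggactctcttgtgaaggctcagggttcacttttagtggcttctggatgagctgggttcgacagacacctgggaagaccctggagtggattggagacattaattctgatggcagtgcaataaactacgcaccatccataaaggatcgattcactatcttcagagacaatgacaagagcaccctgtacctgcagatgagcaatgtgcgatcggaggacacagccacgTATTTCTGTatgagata

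Over these 300 bases, Ighv12-3 and Ighv4-1 had no close relative among the functional members; pseudogenes were not compared. The nearest to Ighv12-3 was Ighv3-6, with 77.2% of positions alike, and the nearest to Ighv4-1 was Ighv11-2, with 76.7%. Ighv1-72, in contrast, matched Ighv1-62-3 at 99.0%, Ighv11-2 matched Ighv11-1 at 98.7%, Ighv3-6 matched Ighv3-1 at 93.3% and Ighv1-54 matched Ighv1-63 at 93.0%. Ighv1-12 matched Ighv1-23 at 88.3%. Reads of near-identical members can be split between them, so on this measure a name such as Ighv1-72 is less certain than Ighv12-3.

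In each plckGAPDH library 1 or a few Ighv genes held most of the Ighv sum, and the leading gene differed from animal to animal. In spleen 343 the leading gene was Ighv3-6 with 1162 FPKM, 73.0% of the Ighv sum (Wilson 95% interval 72.0 to 74.0%). Spleen 508 was led by Ighv1-54 with 214 FPKM and 31.8% (30.3 to 33.3%). Spleen 547 was led by Ighv12-3 with 3107 FPKM and 98.8% (98.6 to 98.9%). These 3 animals thus used members of 3 different subgroups. The unnumbered spleen was led by Ighv1-72 with 1591 FPKM and 70.0% (69.2 to 70.8%). Lymph node 455 was led by Ighv1-12 with 2532 FPKM and 69.9% (69.3 to 70.5%), and lymph node 508 by Ighv1-54 with 169 FPKM and 33.8% (32.2 to 35.5%). The lymph node and the spleen of animal 508 thus shared their leading gene, and no other pair of plckGAPDH libraries did. In both, that gene was no higher than the 218 FPKM that led WT spleen 4. The Ighv sum was 0.0111 of the summed FPKM of the heavy-chain constant genes in spleen 508 and 0.0173 in lymph node 508. Whether the shares stand for all antibody RNA of animal 508 was not tested. In the WT spleens the leading genes were Ighv4-1 in spleen 1 with 1324 FPKM and 34.6% (34.0 to 35.3%), Ighv1-26 in spleen 4 with 218 FPKM and 7.84% (7.44 to 8.27%), and Ighv3-6 in spleen 5 with 122 FPKM and 5.44% (5.03 to 5.88%). WT spleen 1 stood apart from the other 2 WT spleens, and its leading share was above that of plckGAPDH spleen 508. The intervals rest on 3010 to 22469 estimated Ighv fragments per library and cover counting error only.

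**Figure D1:**
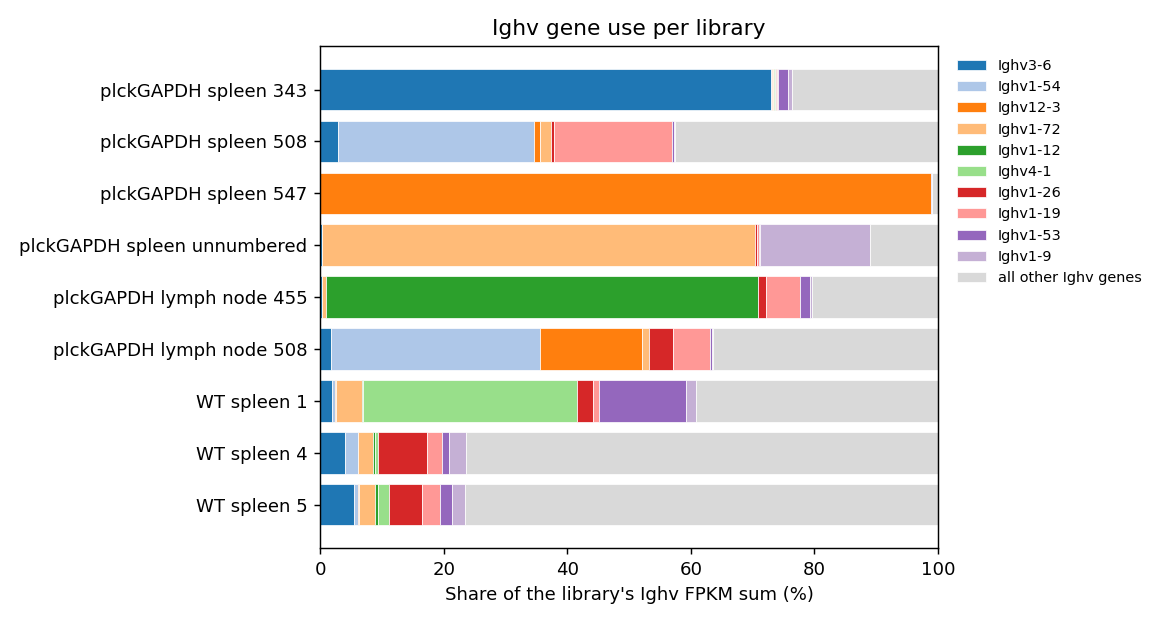
Share of each library's Ighv FPKM sum (percent, horizontal axis) held by the leading genes and by 3 further abundant members, with all other members in grey; 1 bar per library. Ighv12-3 fills 98.8% of the bar of plckGAPDH spleen 547, while members in grey make most of the bars of WT spleens 4 and 5.

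Behind the leading gene, the next members differed too. In spleen 343, Ighv2-3 held 184 FPKM (11.6%) and Ighv2-9-1 held 37.3 FPKM (2.35%). In spleen 508, Ighv1-19, Ighv1-34 and Ighv1-52 held 129, 76.3 and 53.4 FPKM. In the unnumbered spleen, Ighv1-9 held 405 FPKM (17.8%) and Ighv11-2 held 59.8 FPKM (2.63%). Spleen 547 had no such second tier, since its next member, Ighv14-4, held 3.65 FPKM (0.116%). The top 3 members made 87.0%, 62.3%, 99.0% and 90.4% of the Ighv sum in plckGAPDH spleens 343, 508, 547 and the unnumbered one, 78.0% and 63.5% in lymph nodes 455 and 508, and 56.7%, 17.2% and 14.7% in WT spleens 1, 4 and 5. All plckGAPDH libraries were above all WT spleens, with WT spleen 1 nearest to them.

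The RNA outside the leading gene was lower in every plckGAPDH spleen than in every WT spleen, while the Ighv total overlapped between the groups. The Ighv sum was 1590, 672, 3146 and 2273 FPKM in plckGAPDH spleens 343, 508, 547 and the unnumbered one, 3622 and 499 FPKM in lymph nodes 455 and 508, and 3822, 2776 and 2248 FPKM in WT spleens 1, 4 and 5. Spleen 547 and the unnumbered spleen thus lay within the WT range. Without the leading gene the sums were 429, 458, 39.1 and 683 FPKM in the plckGAPDH spleens, 1090 and 330.4 FPKM in the lymph nodes, and 2499, 2558 and 2126 FPKM in the WT spleens. The means of that remainder were 402 ± 267 FPKM (SD, n = 4) in plckGAPDH spleens and 2394 ± 234 FPKM (SD, n = 3) in WT spleens. No p is given for a sum over the members. In bulk RNA, fewer cells of a type and less RNA per cell cannot be told apart.

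**Figure D2:**
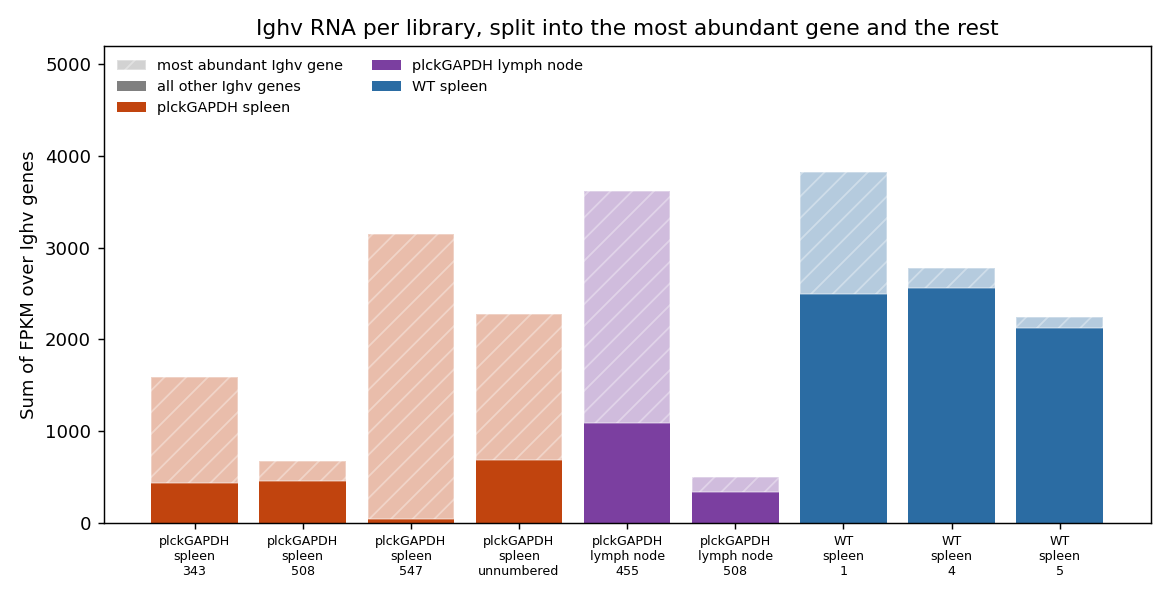
Sum of FPKM over all Ighv genes per library (vertical axis), split into the most abundant member (pale, hatched) and all others (solid); the solid part is 39.1 to 683 FPKM in plckGAPDH spleens, 330.4 and 1090 FPKM in lymph nodes and 2126 to 2558 FPKM in WT spleens.

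Diversity was expressed as the effective number of V genes, the exponential of the Shannon entropy of the shares, which equals 1 when 1 gene holds everything. It was 3.69, 11.3, 1.12 and 3.40 in plckGAPDH spleens 343, 508, 547 and the unnumbered one, 5.36 and 11.3 in lymph nodes 455 and 508, and 18.5, 54.3 and 63.7 in WT spleens 1, 4 and 5. The groups did not overlap. Both values of 11.3 are of animal 508, whose Ighv sums were small beside the heavy-chain constant genes. With the leading gene taken out, it was 14.6, 13.9, 34.2 and 7.70 in the plckGAPDH spleens, 34.6 and 14.9 in the lymph nodes, and 32.2, 56.6 and 64.7 in the WT spleens. The remainder of spleen 547 was then about as even as that of WT spleen 1, but it rested on 39.1 FPKM. Members at 1 FPKM or more numbered 47, 33, 10 and 46 in the plckGAPDH spleens, 70 and 34 in the lymph nodes, and 92, 90 and 100 in the WT spleens.

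The highest single value of any member was that of a B-1 gene, Ighv12-3, in 1 plckGAPDH spleen. Ighv12-3 held 3.89, 5.92 and 3107 FPKM in plckGAPDH spleens 343, 508 and 547 and was listed at 0 in the unnumbered spleen. It held 0.830 and 82.4 FPKM in lymph nodes 455 and 508, and 3.87, 0.580 and 4.25 FPKM in WT spleens 1, 4 and 5. Spleen 547 was thus 731 times the highest WT spleen, lymph node 508 came next, and the other plckGAPDH libraries were at 0 to 5.92 FPKM. Across the groups of spleens the log2 fold change was 2.39 (SE 1.98, limma FDR 0.887, and 0.244 to 1.0 over the alternatives), a difference that rests on 1 spleen and did not pass the test. Igkv4-91, the kappa V gene known to pair with Ighv12-3 in phosphatidylcholine-binding antibodies, held 13.9, 8.77, 5154 and 2.33 FPKM in the plckGAPDH spleens, 1.41 and 190.4 FPKM in lymph nodes 455 and 508, and 16.1, 10.8 and 21.5 FPKM in the WT spleens. The heavy-chain gene and its known partner were thus highest in the same 2 libraries, spleen 547 and lymph node 508. The leading constant gene of spleen 547 was Ighm, of class IgM, with 94.0% of its heavy-chain constant FPKM.

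The summed level of 5 genes that mark B-1 cells was highest in spleen 547, though 2 of the 5 were not. The sum was 81.2, 79.3, 242 and 175 FPKM in plckGAPDH spleens 343, 508, 547 and the unnumbered one, 40.3 and 52.2 FPKM in the lymph nodes, and 117, 77.5 and 90.6 FPKM in the WT spleens. Bhlhe41, a transcription factor of B-1a cells, held 60.1 FPKM in spleen 547, against 1.91 to 13.7 FPKM in the WT spleens, and Zbtb32, another regulator of that lineage, held 48.1 FPKM, against 1.45 to 12.7 FPKM. Cd5, a surface protein of B-1a cells and of T cells, did not follow, with 12.8 FPKM in spleen 547 and 39.4 FPKM in the unnumbered spleen. Nor did Spn, which encodes the surface protein CD43 and was also highest in the unnumbered spleen, at 94.9 FPKM. None of the 5 markers was called between plckGAPDH and WT spleens by limma, and Plscr1 alone had an unadjusted p under 0.05 (log2 fold change 1.51, limma FDR 0.302).

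Ighv11-2, the other phosphatidylcholine gene, was highest in a different spleen. It held 1.10, 3.50, 0.590 and 59.8 FPKM in plckGAPDH spleens 343, 508, 547 and the unnumbered one, 0.400 and 3.85 FPKM in the lymph nodes, and 11.9, 1.74 and 7.84 FPKM in the WT spleens. The unnumbered spleen was 5.0 times the highest WT spleen, and the other plckGAPDH libraries ran from 0.400 to 3.85 FPKM, around the level of WT spleen 4. Igkv14-126, its known kappa partner, held 48.9 FPKM in the unnumbered spleen, 0.610 to 3.63 FPKM in the other plckGAPDH spleens, 1.81 and 4.45 FPKM in the lymph nodes, and 17.7 to 20.3 FPKM in the WT spleens. The log2 fold change of Ighv11-2 was -0.31 (SE 1.03, limma FDR 0.991). Ighv11-2 in this spleen stood beside a far more abundant Ighv1-72, the V gene of the nitrophenyl response of C57BL/6 mice. Ighv1-72 held 3.18, 11.9, 0.380 and 1591 FPKM in the plckGAPDH spleens, 24.9 and 5.16 FPKM in the lymph nodes, and 162, 64.6 and 56.9 FPKM in the WT spleens. Outside the unnumbered spleen, every plckGAPDH library lay below every WT spleen.

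Ighv7-1, the T15 gene of phosphorylcholine-binding antibodies, fell in plckGAPDH spleens. It was listed at 0 in plckGAPDH spleens 343, 508 and 547, held 0.210 FPKM in the unnumbered spleen, 0.390 FPKM in lymph node 455 and 0 in lymph node 508, and held 2.13, 2.41 and 8.28 FPKM in WT spleens 1, 4 and 5. The groups did not overlap, and in plckGAPDH spleens the gene fell by 2.14 in log2 units (SE 0.39, limma FDR 0.0136). Without the filter on low values the limma FDR was 0.201, and over all 11 alternatives it ran from 0.00153 to 0.201. The gene reached the filter through the WT spleens alone.

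**Figure D3:**
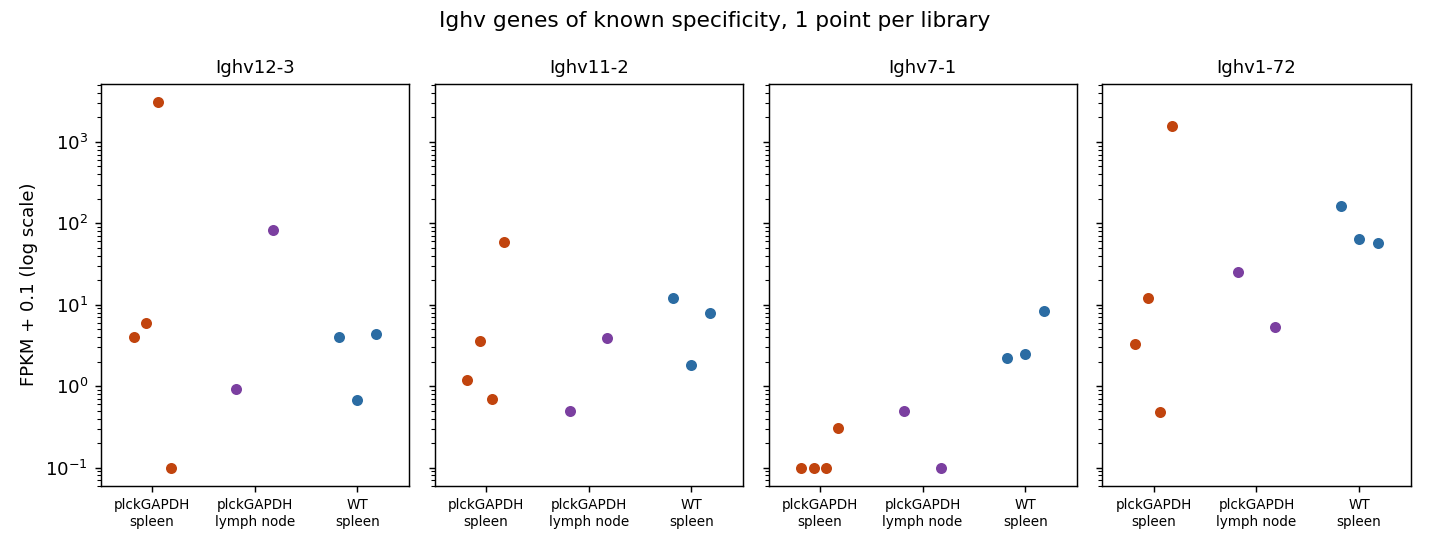
FPKM plus 0.1 (logarithmic vertical axis) of Ighv12-3, Ighv11-2, Ighv7-1 and Ighv1-72, 1 point per library, for plckGAPDH spleens, plckGAPDH lymph nodes and WT spleens. Ighv12-3 and Ighv1-72 each have 1 plckGAPDH spleen far above the rest, at 3107 and 1591 FPKM, while all plckGAPDH values of Ighv7-1 lie below the WT values.

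By subgroup, the plckGAPDH libraries differed widely from each other. Subgroup 1, with 93 rows the largest, made 7.17%, 86.9%, 0.673% and 93.4% of the Ighv sum in plckGAPDH spleens 343, 508, 547 and the unnumbered one, 89.9% and 71.6% in lymph nodes 455 and 508, and 48.8%, 56.9% and 56.3% in WT spleens 1, 4 and 5. No plckGAPDH library lay within the WT range. Subgroup 3 made 73.9% in plckGAPDH spleen 343, 0.0693 to 2.91% in the other plckGAPDH spleens, 1.10 and 1.96% in the lymph nodes, and 2.36 to 9.84% in the WT spleens. Subgroup 2 made 15.7% in plckGAPDH spleen 343, 0.0451 to 4.03% in the others, 1.11 and 3.34% in the lymph nodes, and 1.93 to 5.08% in the WT spleens. Spleen 343 thus lay above the WT range in both. Subgroup 12, with 3 rows, made 98.8% in plckGAPDH spleen 547 and 16.5% in lymph node 508, at most 0.881% in the other plckGAPDH libraries and at most 0.189% in the WT spleens. Subgroup 4 made at most 0.133% in any plckGAPDH library, 34.6% in WT spleen 1, and 0.526% and 1.87% in WT spleens 4 and 5.

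In some smaller subgroups the genotypes did not overlap. Subgroup 6 made 0.286%, 0.257%, 0.162% and 0.402% in the plckGAPDH spleens, 0.452% and 0.361% in the lymph nodes, and 1.70%, 4.97% and 4.81% in the WT spleens. Subgroup 10 made 0.0635%, 0.0595%, 0.00890% and 0.0809% in the plckGAPDH spleens, 0.447% and 0% in the lymph nodes, and 0.564%, 2.58% and 2.88% in the WT spleens. In both, every plckGAPDH library was below every WT spleen. The same held for subgroups 4, 7, 8 and 9, and for none of the remaining subgroups. In subgroup 8 the margin was narrow, with 2.92% in lymph node 455 and 2.98% in WT spleen 1. A high share of the leading gene lowers the shares of all other subgroups. A lower share alone therefore does not show less RNA of a subgroup. Subgroup 15 reached at most 0.0194% in any plckGAPDH library and 0.0140 to 0.226% in the WT spleens, and the 1 row of subgroup 16 was listed at 0 in all 9 libraries.

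The V genes are spread over 2437 kb, and were grouped by subgroup number, which follows position only roughly: subgroups 2 and 5 (33 rows, mostly nearest to the D segments) are called proximal, subgroups 1 and 8 (109 rows, mostly farthest) distal, and the remaining 43 rows middle. Some rows lie outside their stretch, such as Ighv5-21 among the middle rows, and Ighv12-3, which lies beyond the nearest rows of subgroups 1 and 8. The distal subgroups made 7.27%, 87.1%, 0.703% and 93.7% of the Ighv sum in plckGAPDH spleens 343, 508, 547 and the unnumbered one, 92.9% and 72.0% in lymph nodes 455 and 508, and 51.8%, 60.8% and 59.8% in the WT spleens. The middle subgroups made 76.3%, 5.53%, 99.2% and 5.43% in the plckGAPDH spleens, 5.20% and 21.7% in the lymph nodes, and 43.3%, 28.3% and 28.8% in the WT spleens. The proximal subgroups made 16.4%, 7.33%, 0.0614% and 0.909% in the plckGAPDH spleens, 1.95% and 6.38% in the lymph nodes, and 4.83%, 10.9% and 11.4% in the WT spleens. The leading genes of the plckGAPDH libraries belonged to the middle and distal subgroups, and none to the proximal ones. The same was true of the WT spleens.

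**Figure D4:**
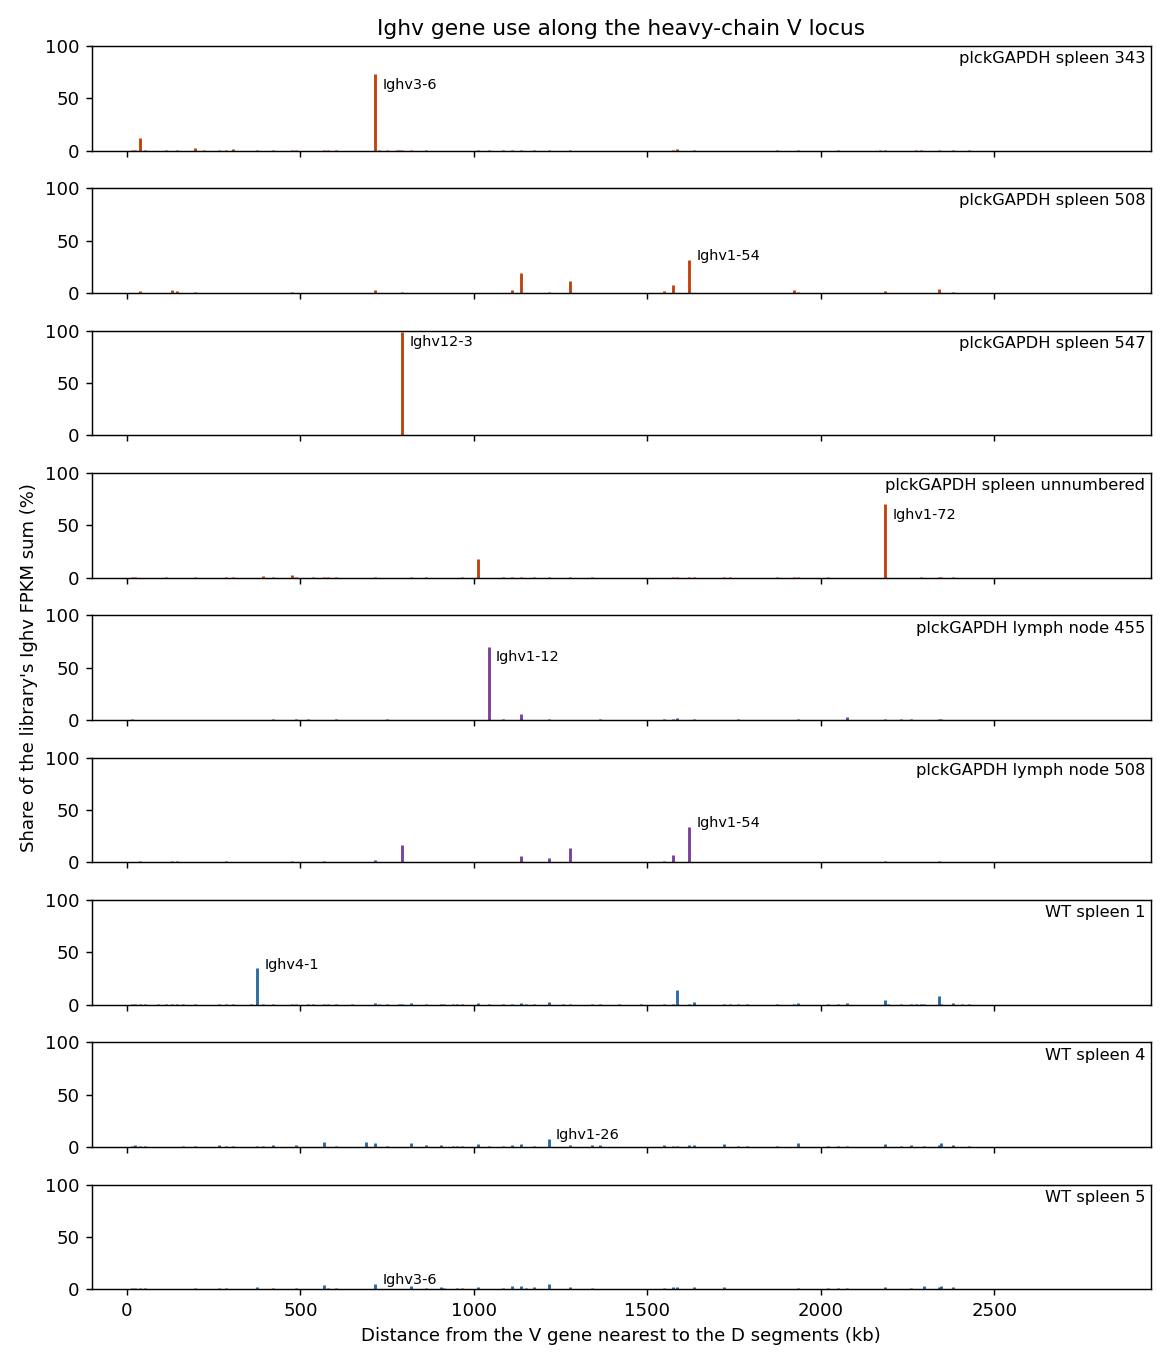
Share of the Ighv sum (percent, vertical axis) of every member against its distance in kb from the V gene nearest to the D segments, 1 panel per library, with the leading gene named. The plckGAPDH libraries show 1 or a few tall lines at different places, from 31.8 to 98.8%, while WT spleens 4 and 5 show many short ones.

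Gene by gene, most Ighv genes were lower in plckGAPDH spleens than in WT spleens. The spleens were compared with limma on log2(FPKM + 1) over all 12607 genes at 1 FPKM or more in at least 3 of the 7 spleens, and a gene was called when its false discovery rate (FDR, after Benjamini and Hochberg) was below 0.05. Of the 185 members, 86 passed that filter, 58 of them were called lower and 0 higher; over all genes tested, 1.23% were called lower and 0.206% higher. At an unadjusted limma p under 0.05, 75 of the 86 members passed, 0 of them higher, and 1116 of all 12607 genes passed in either direction. Of the 86, 25 reached the filter through the 3 WT spleens alone and so had to differ, and 22 of these were among the 58. The other 36 called members were at 1 FPKM or more in at least 1 plckGAPDH spleen. The median log2 fold change of the 86 was -2.84, against 0.02 over all genes tested. It includes the 25 members that had to differ, and no median without them was taken. Without WT spleen 1, 4 or 5, 61 members passed the filter, and 32, 28 and 29 of them were called lower; without both 4 and 5, 3 of 43 were.

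The 6 largest falls among members with a mean log2(FPKM + 1) of 2 or more came from 4 subgroups. Ighv4-1 held 2.12, 0.500, 0.240 and 0.660 FPKM in the plckGAPDH spleens and 1324, 13.9 and 40.7 FPKM in WT spleens 1, 4 and 5. It fell by 5.73 in log2 units (SE 1.12, limma FDR 0.0224), and the limma FDR ran from 2.69e-05 to 0.303 over the alternatives, with 0.0821 without plckGAPDH spleen 508. WT spleen 1 was the highest by far, but WT spleens 4 and 5 were also above all plckGAPDH spleens. Ighv1-26, the member with the highest share in WT spleen 4, held 4.48, 2.75, 0.630 and 7.02 FPKM in the plckGAPDH spleens and 101, 218 and 119 FPKM in the WT spleens, and fell by 5.10 (SE 0.54, limma FDR 0.000272). Ighv1-81 held 0 to 3.51 FPKM in the plckGAPDH spleens and 27.6 to 115 FPKM in the WT spleens, and fell by 4.84 (SE 0.56, limma FDR 0.000543). In these 3 genes the highest plckGAPDH spleen did not reach the lowest WT spleen.

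Ighv9-3 held 0 to 5.68 FPKM in the plckGAPDH spleens and 36.7 to 128 FPKM in the WT spleens, and fell by 4.77 (SE 0.63, limma FDR 0.00124). Its limma FDR was 0.0538 without a filter, in a range of 1.97e-05 to 0.247. Ighv1-78 held 0 to 0.780 FPKM and 17.0 to 67.3 FPKM in the same order and fell by 4.55 (SE 0.46, limma FDR 0.000227), but it reached the filter through the WT spleens alone and so had to differ. Ighv6-3 held 1.49, 1.73, 2.78 and 2.56 FPKM in the plckGAPDH spleens and 44.4, 97.0 and 72.1 FPKM in the WT spleens, and fell by 4.47 (SE 0.39, limma FDR 0.000176). Ighv6-3 was the evenest of the 6 within both groups and was called in all 15 alternatives. Over all members tested, 64 had no overlap between the groups and were lower in plckGAPDH spleens, and 0 were higher, where 3.88% and 3.39% of all genes tested did so. For the 25 members that reached the filter through the WT spleens alone the filter fixed this, so 25 of the 64 carry no weight.

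The highest member of each subgroup in the WT spleens was named as well. Of these, Ighv10-1 (-4.37, limma FDR 0.000269), Ighv8-8 (-4.40, limma FDR 0.000716), Ighv5-16 (-3.92, limma FDR 0.000768), Ighv14-2 (-3.54, limma FDR 0.000435), Ighv2-2 (-3.46, limma FDR 0.00137), Ighv7-3 (-2.95, limma FDR 0.00682) and Ighv13-2 (-2.31, limma FDR 0.0110) fell, the values being log2 fold changes. Without WT spleen 1 the limma FDR of Ighv13-2 was 0.0507, and its range over the alternatives was 6.25e-05 to 0.174. That of Ighv7-3 was 0.0709 with the pseudocount of 0.1 and 0.125 without a filter, in a range of 0.00108 to 0.513. Ighv1-53, the highest of subgroup 1, held 25.3, 2.37, 3.18 and 2.59 FPKM in the plckGAPDH spleens and 534, 34.0 and 44.2 FPKM in the WT spleens. All plckGAPDH spleens were below all WT spleens, but the log2 fold change of -3.97 (SE 0.93) missed the threshold with a limma FDR of 0.0642. Without plckGAPDH spleen 343 its limma FDR was 0.00360 and without spleen 547 it was 0.0458, within a range of 0.000370 to 0.466 over the alternatives. Ighv15-2 was not tested, with 0 to 0.440 FPKM in plckGAPDH spleens and 0.390 to 5.07 FPKM in WT spleens.

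The calls by subgroup were 31 of 45 members tested in subgroup 1, 7 of 8 in subgroup 5, 4 of 4 in subgroup 14, 3 of 3 in subgroup 7, 3 of 4 in subgroup 8, 2 of 2 in subgroups 6 and 10, 2 of 4 in subgroup 9, 2 of 7 in subgroup 2, 1 of 1 in subgroups 4 and 13, and 0 of 3 in subgroup 3. The single members tested in subgroups 11 and 12 were Ighv11-2 and Ighv12-3, neither of them called. All calls were lower. These counts include the 22 called members that reached the filter through the WT spleens alone and so had to differ. Among them were Ighv7-1 and Ighv7-4 of subgroup 7, Ighv10-3, Ighv14-1, Ighv8-13, and Ighv5-2, Ighv5-9 and Ighv5-9-1 of subgroup 5. Subgroups 2 and 3, which had few calls, are those that spleen 343 used most, and a link between these was not tested. Ighv12-3 was the 1 member of 86 with a positive fold change.

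**Figure D5:**
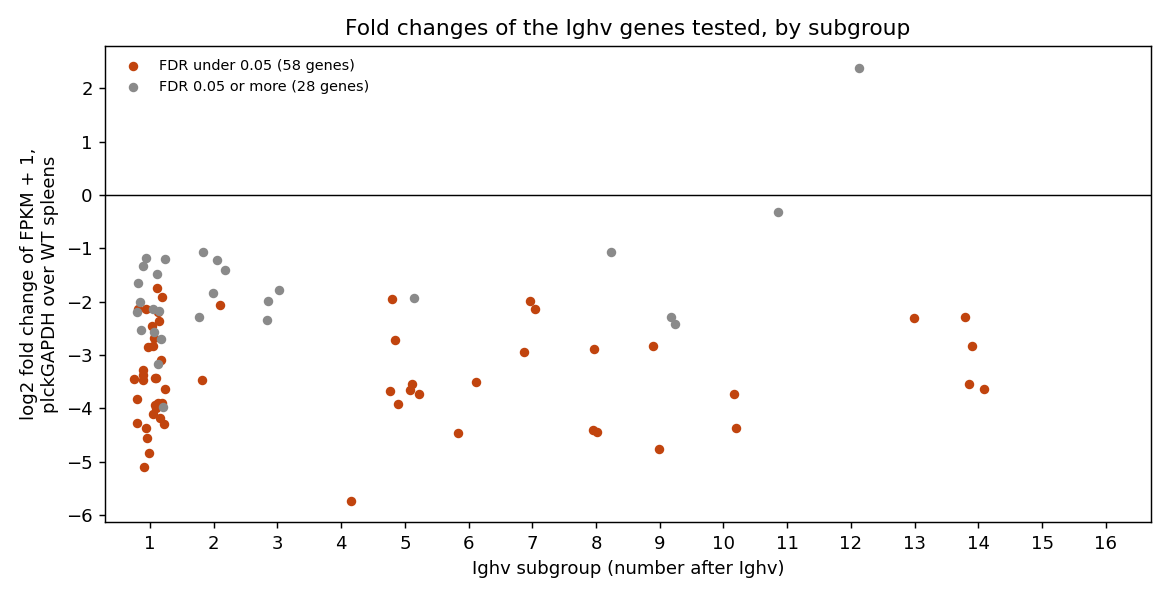
log2 fold change of FPKM + 1, plckGAPDH over WT spleens (vertical axis), of the 86 Ighv genes tested, by subgroup number (horizontal axis, points spread sideways for visibility). The 58 called members lie between -5.73 and -1.75, and Ighv12-3 at 2.39 is the point above 0.

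Of the genes that led a plckGAPDH spleen, 3 were below every WT spleen in the other plckGAPDH spleens. Ighv12-3 was not, since it held 0 to 5.92 FPKM there and 0.580 to 4.25 FPKM in the WT spleens. Ighv3-6 held 1162 FPKM in spleen 343, 19.2, 1.76 and 5.96 FPKM in the other plckGAPDH spleens, 8.83 and 9.09 FPKM in the lymph nodes, and 73.8, 114 and 122 FPKM in the WT spleens. Its log2 fold change was -1.98 (SE 1.51, limma FDR 0.867), and without spleen 343 it was -3.81 (limma FDR 0.00295, the lowest of a range up to 1.0). Ighv1-54 held 0.770, 214, 0 and 2.50 FPKM in the plckGAPDH spleens, 1.47 and 169 FPKM in lymph nodes 455 and 508, and 18.6, 56.9 and 15.3 FPKM in the WT spleens. Its log2 fold change was -2.13 (SE 1.41, limma FDR 0.811), and without spleen 508 it was -3.85 (limma FDR 0.00769, in a range of 0.000491 to 1.0). Ighv1-72 was at -2.20 (SE 1.75, limma FDR 0.880) and, without the unnumbered spleen, at -4.34 (limma FDR 0.00262, in a range of 0.000230 to 1.0). In all 3 genes, 1 spleen decided the call; the spleen left out is the one for which the gene was named, so these FDRs support nothing about the other spleens.

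Members above every WT spleen in at least 1 plckGAPDH spleen numbered 21. Of these, 6 were more than 5 times the highest WT spleen at 10 FPKM or more: Ighv12-3 in spleen 547, Ighv1-72 (9.85 times), Ighv1-9 (5.46 times) and Ighv11-2 (5.0 times) in the unnumbered spleen, and Ighv3-6 (9.51 times) and Ighv2-3 (6.95 times) in spleen 343. They were picked for these values, so no test is given. Each was above the WT spleens in 1 plckGAPDH spleen, except Ighv12-3, which was also above them in spleen 508 with 5.92 FPKM. Only 4 members, Ighv3-6, Ighv6-3, Ighv14-4 and Ighv1-53, were at 1 FPKM or more in all 4 plckGAPDH spleens, whereas 85 members were so in all 3 WT spleens.

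In animal 508 the spleen and the lymph node could be set side by side. Of 34 members at 1 FPKM or more in the lymph node and 33 in the spleen, 26 were shared (76.5% of the lymph node's and 78.8% of the spleen's), and 4 of the top 5 were the same. Most of the 34 were also at 1 FPKM or more in lymph node 455, of another animal, which held 70 such members. The overlap of 26 is thus not particular to animal 508. Ighv1-54 held 169 FPKM in the lymph node and 214 FPKM in the spleen, Ighv1-34 held 65.9 and 76.3 FPKM in the same order, and Ighv1-52 held 32.8 and 53.4 FPKM. These 3 were close in both tissues. Ighv1-19 differed more, with 29.9 FPKM in the lymph node and 129 FPKM in the spleen, and in the other direction Ighv12-3 held 82.4 FPKM in the lymph node (16.5% of its Ighv sum) and 5.92 FPKM in the spleen (0.881%). The level of Ighv12-3 in lymph node 508 was 2.65% of that in spleen 547, and the level of Igkv4-91 there was 3.69% of that in spleen 547. In spleen 508 the same shares were 0.191% and 0.170%. Without Ighv12-3, Ighv1-54 made 40.5% of the Ighv sum in the lymph node and 32.1% in the spleen. Whether material of spleen 547 entered lymph node 508 was not tested.

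Over 99 functional members, the Spearman correlation of FPKM was 0.76 between lymph node and spleen of animal 508 and 0.82 to 0.88 between WT spleens. Some pairs of different animals, each with a WT spleen, came near the 0.76. Lymph node 455 had 0.71 with each WT spleen, and the unnumbered spleen had 0.70 with WT spleen 5. All other pairs of plckGAPDH libraries were lower, at 0.26 to 0.59. Spleen 547 had 0.26 to 0.40 with any other library, and only 10 of its members were at 1 FPKM or more. These are descriptions across genes, which are not independent replicates and share length and sequence effects in all libraries.

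Across the 2 lymph nodes and 4 plckGAPDH spleens, no Ighv gene was called. The fit covered all 9 samples and 13682 genes, 95 members among them, and limma called 0 of the 95 in either direction, where 0.00731% of all genes were called lower and 0.00731% higher. At an unadjusted limma p under 0.05, 12 of the 95 members passed, all of them higher in the lymph nodes. Over all 13682 genes tested 1546 passed in either direction. How many of these were higher was not counted, so the members have no share of like direction beside them. The median log2 fold change was 0.70 over the members and -0.59 over all genes tested. The groups did not overlap in 1 member that was lower and 6 that were higher in the lymph nodes, against 30.0% and 0.490% of all genes. Ighv1-12 held 2532 and 0.470 FPKM in lymph nodes 455 and 508 and 1.26, 0.190, 0 and 1.11 FPKM in the plckGAPDH spleens, with 5.56 to 11.6 FPKM in the WT spleens. It was thus high in 1 lymph node alone, 218 times the highest WT spleen, and its log2 fold change of 5.31 (SE 2.01) had a limma FDR of 0.359. Without lymph node 508 the log2 fold change was 10.68 (limma FDR 2.16e-05), a value of 1 lymph node assumed to vary like the other groups, and without lymph node 455 it was -0.07 (limma FDR 0.932); the other alternatives gave an FDR of 0.161 to 0.628. Ighv1-26 held 45.0 and 19.4 FPKM in the lymph nodes and 0.630 to 7.02 FPKM in the plckGAPDH spleens, a log2 difference of 2.92 (SE 0.62) that missed the threshold with a limma FDR of 0.359. Without lymph node 508, limma called 7 members among 26 genes higher of 13626 tested, and without spleen 508, 1 member among 21 genes higher of 13578; without lymph node 455 the members' median was -0.18. In plckGAPDH against WT spleens, Ighv1-12 fell by 2.69 (SE 0.41, limma FDR 0.00352).

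The heavy-chain constant genes, which follow the V part in the transcript and set the antibody class, showed no called change. All 8 were tested in plckGAPDH against WT spleens, and limma called 0 at an FDR under 0.05. At an unadjusted p under 0.05, 1 passed, Ighd of class IgD (log2 fold change -3.34, limma FDR 0.297). The ratio of the Ighv sum to the constant sum was 0.846, 0.0111, 0.727 and 0.692 in plckGAPDH spleens 343, 508, 547 and the unnumbered one, 0.274 and 0.0173 in lymph nodes 455 and 508, and 0.846, 0.787 and 0.792 in the WT spleens. Both libraries of animal 508 were far below the rest, and lymph node 455 lay between. In spleen 508 the constant sum was 60644 FPKM, 98.0% of it Ighg2c (class IgG2c), beside an Ighv sum of 672 FPKM, and in lymph node 508 it was 28844 FPKM, 96.7% of it Ighg2c. In lymph node 455 it was 13206 FPKM, 88.2% of it Ighe (class IgE). Whether the V gene shares of these 3 libraries stand for all of their antibody RNA was not tested. The same 3 libraries had the highest sums of 7 plasma cell genes, 4481, 2613 and 2371 FPKM in spleen 508, lymph node 455 and lymph node 508, against 80.1 to 376 FPKM in the other plckGAPDH spleens and 227 to 348 FPKM in the WT spleens; the part of plasma cells in the ratio was not tested.

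Other genes of the pathway were taken from set lists. Of 6 genes of V(D)J recombination and somatic mutation 3 were tested and limma called 0, and of 3 surrogate light-chain genes of early B cells 0 were tested, since they were near 0. Rag1, which cuts the V segments during joining, reached at most 0.0100 FPKM in plckGAPDH libraries and 0.190 FPKM in WT spleens. Cd79a and Cd79b, the signalling chains of the B cell receptor, were not called. Of 9 B cell genes 2 fell, the complement receptor Cr2 (-5.44, limma FDR 0.00169) and the IgE receptor Fcer2a (-4.05, limma FDR 0.0136), both genes of mature follicular or marginal zone B cells. Their sum with the other 7 was 1104, 583, 1148 and 735 FPKM in the plckGAPDH spleens and 1910, 435 and 1999 FPKM in the WT spleens. WT spleen 4 thus had the lowest B cell sum of all spleens, with 90 members at 1 FPKM or more. The part of B cell content in the number of members was not tested.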

How the data were processed

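RNA of 9 samples was analysed as the deposited table of FPKM, which the authors made from stranded paired-end total RNA libraries (75 bases per read, per the labels' protocols). The submitters' processing notes name Bowtie2 2.2.6, STAR 2.4.0a, RSEM and featureCounts (Subread 1.5.0-p3) and the build mm10; which tool made the FPKM is not given there. Samples were grouped by the labels' genotype and tissue.

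Members were matched by symbol; positions, gene classes and sequences come from GENCODE M21, which matched 98.9% of the table's genes. Shares are of summed FPKM per library. Fragments were estimated from the steps of low FPKM in genes with 1 transcript (82.6 to 87.2% of values at whole fragments within 0.05 fragments and rounding, against 29.8 to 33.1% by chance). Wilson 95% intervals used these estimates.

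limma 3.58.1 (R 4.3.3) with an intensity trend was fitted on log2(FPKM + 1), which understates changes of low genes, and was tested on simulated data. The spleen fit used 7 spleens and genes at 1 FPKM in 3, and the lymph node fit used all 9 samples and genes at 1 FPKM in 2. Named genes were the leading gene of each library, Ighv12-3, Ighv11-2, Ighv7-1, Ighv1-72, the 6 largest called falls (no rise was called) and the highest member of each subgroup in WT spleens; further members, such as the next most abundant in a library, were chosen after their values were seen. Members and gene lists were chosen with earlier results of these data known. Ighv promoters were not analysed here. Alternatives covered the pseudocount, filter, scaling, sample weights, left-out libraries and the definition of shares.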

Additional observations from a re-analysis of the deposited data

Results flagged for a closer look

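Of 26 values examined (FPKM of named genes and 4 measures of the whole family) in the 4 plckGAPDH spleens, 7 had 1 spleen far from the other 3. The rule marks about 1 in 20 values by chance if values are normally distributed, and this was not tested for these FPKM, so the rate may be higher here. Ighv12-3, Ighv1-72, Ighv3-6 and Ighv1-54 were named for leading a library, so their 4 marks follow from that choice and are not to be read against that rate. Ighv12-3 held 3107 FPKM in spleen 547, against 0 to 5.92 FPKM in the other 3. Ighv1-72 held 1591 FPKM and Ighv11-2 held 59.8 FPKM in the unnumbered spleen, against 0.380 to 11.9 FPKM and 0.590 to 3.50 FPKM. Ighv3-6 held 1162 FPKM and Ighv1-53 held 25.3 FPKM in spleen 343, against 1.76 to 19.2 FPKM and 2.37 to 3.18 FPKM. Ighv1-54 held 214 FPKM in spleen 508, against 0 to 2.50 FPKM. Ighv7-1 held 0.210 FPKM in the unnumbered spleen and was listed at 0 in the others, a value near the smallest the table can show.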

How the results depend on the processing

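The count of 58 Ighv genes lower in plckGAPDH than in WT spleens moved most with the filter and the WT spleens. It was 31 of 140 without a filter, 28 to 67 with each spleen left out in turn and 3 without WT spleens 4 and 5; the filter asks for 3 spleens, so fewer members pass with 2 WT spleens. With other settings it was 44 (pseudocount of 0.1), 49 (median-of-ratios scaling), 54 (filter of 1 spleen), 64 (without spleen 508 and the unnumbered spleen), 65 (scaling without mitochondrial, ribosomal RNA and V genes, which moved the median of all genes to -0.17) and 72 (sample weights, with WT spleen 1 at 24.8, where 972 of all 12607 genes were lower and 891 higher). The median log2 fold change of -2.84 became -2.44 with the filter of 1 spleen, -1.96 without a filter and -4.39 with the pseudocount of 0.1. No Ighv gene was called higher under any of these settings.

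Of 304 values of 21 named genes under the alternatives, 272 kept their side of the threshold, 21 lost a call and 11 gained one. Of the lost calls, 9 were without WT spleens 4 and 5 and 6 without a filter. Reversals of direction were counted only for genes called in the main fit, and there were 0. Some genes not called there did change sign. Without plckGAPDH spleen 547, the log2 fold change of Ighv12-3 went from 2.39 to -0.09 and that of Ighv11-2 from -0.31 to 0.29. In the lymph node comparison, 0 to 7 Ighv genes were called higher with each library left out in turn (7 without lymph node 508, 1 without spleen 508).

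Leading shares moved by at most 4.70 percentage points between definitions. The mean effective number was 4.87 in plckGAPDH spleens (2.74 to 6.12 with each left out, a choice made after seeing the data), 8.35 in lymph nodes (5.36 and 11.3) and 45.5 in WT spleens (36.4 to 59.0). No paired analysis was possible because the groups share only animal 508. Reads shared by similar V genes and the estimated depth limit low members most.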

Other observations

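Pseudogenes made little of the Ighv RNA: 0.120%, 0.121%, 0.00827% and 0.0383% of the sum in plckGAPDH spleens 343, 508, 547 and the unnumbered one, 0.145% and 0.0321% in lymph nodes 455 and 508, and 0.264%, 0.186% and 0.555% in WT spleens 1, 4 and 5. Of the 70 pseudogenes, 6 reached 1 FPKM in at least 1 library. Of all 185 rows, 43 were listed at 0 in every library and 105 reached 1 FPKM in at least 1. Only 1 member reached 1 FPKM in a plckGAPDH spleen and in no WT spleen. Members at 1% or more of the Ighv sum numbered 5, 14, 1 and 4 in the plckGAPDH spleens, 7 and 13 in the lymph nodes, and 13, 37 and 38 in the WT spleens.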
